A study of Homo sapiens with 10 samples.

Results

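The genes described here are 7 cadherins (CDH1, CDH2, CDH3, CDH4, CDH6, CDH11 and CDH13) and 2 catenins (CTNNA1 and CTNNB1). They were chosen by name, as a known group of cell adhesion genes, but with earlier results of these data known. They make up 9 of the 23170 genes in the expression tables. Classical cadherins are membrane proteins that bind the like cadherin on the next cell in a calcium-dependent way. Inside the cell their tail binds β-catenin (CTNNB1), which binds α-catenin (CTNNA1), which in turn holds the actin skeleton. Epithelial cells are held together mainly by E-cadherin (CDH1), and the exchange of E-cadherin for N-cadherin (CDH2) or other mesenchymal cadherins, the cadherin switch, is a textbook mark of epithelial-mesenchymal transition (EMT).

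The RNA came from 4 lines of PC3, an established human prostate cancer line that was derived from a bone metastasis. PC3-Epi (2 samples) is an epithelial population selected from PC3 cells carrying a luciferase reporter. PC3-EMT14 (3 samples) is a single mesenchymal population that was isolated after PC3-Epi had been grown together with human macrophages, so it stands for 1 such population and not for EMT in general. Its derivatives overexpressed OVOL1 (PC3-EMT14-OVOL1, 3 samples) or OVOL2 (PC3-EMT14-OVOL2, 2 samples), zinc finger transcription factors of epithelial cells, from lentiviral constructs that differed between the 2 genes. All 4 lines descend from the luciferase-carrying cells, and the labels name PC3-EMT14 itself, with no empty vector, as the line the OVOL lines were set against. The tables asked which genes differ between PC3-Epi and PC3-EMT14, which differ once OVOL1 or OVOL2 is added to PC3-EMT14, and which differ between the OVOL lines.

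The deposited tables hold gene and isoform levels in FPKM, fragments scaled to transcript length and to an upper-quartile measure of library size, with 1 pooled value for each line in each table. The values of single samples and the sequencing depth are not in these tables, so no spread between replicates or interval is given. The test columns that the authors deposited were not used, and every difference here is one between pooled values, without a test. A difference was counted when the higher line had 1 FPKM or more, both lines were above 0 and the levels were at least 2-fold apart. Levels of PC3-EMT14 and PC3-Epi are from their shared table and those of each OVOL line from its table with PC3-EMT14. The tables were scaled separately, and the median gene of a line differed between tables by a ratio of 0.969 to 1.00. In such bulk RNA, fewer cells of a kind and less RNA in each cell cannot be told apart.

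The transgenes followed the labels. OVOL1 was at 0.0243 FPKM in PC3-EMT14, 11.3 FPKM in PC3-EMT14-OVOL1, 0.0701 FPKM in PC3-EMT14-OVOL2 and 4.25 FPKM in PC3-Epi. OVOL2 was at 0.383, 0.562, 831 and 9.91 FPKM in the same order, so the level of the OVOL2 transcript was far above that in PC3-Epi. The summed level of the epithelial markers EPCAM, KRT8, KRT18 and KRT19 was 899, 980, 1471 and 1613 FPKM in that order, and that of the mesenchymal markers VIM and FN1 was 307, 202, 93.3 and 76.3 FPKM. EPCAM was at 23.4, 87.6, 151 and 224 FPKM, KRT8 at 87.7, 128, 244 and 296 FPKM, and KRT18 at 117, 156, 215 and 351 FPKM. KRT19, at 671, 608, 862 and 742 FPKM, was the highest epithelial value in each line and VIM, at 271, 183, 76.9 and 42.5 FPKM, the higher mesenchymal value, while FN1 was at 36.8, 18.4, 16.5 and 33.8 FPKM and so nearly level between PC3-EMT14 and PC3-Epi. Of 10 macrophage markers, 9 were under 1 FPKM in every line, with PTPRC, CD14 and CSF1R among them. The exception was CD68, at 54.1, 51.2, 57.8 and 13.2 FPKM, and its part in any difference was not tested. The prostate marker KLK3 was listed at 0 in all 4 lines.

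The DNA just before the start of a gene gives context for its level, and the RefSeq table used here (build GRCh38.p14, not the hg19 build of the expression tables) held such windows for 4 of the 9 genes. CDH2, CTNNA1 and CTNNB1 are shown, 250 bases before the start that the table lists first. They are the mesenchymal partner in the classical switch and the 2 catenins among the 9 genes. Capitals mark each CG dinucleotide, the site of DNA methylation, which was not measured here. The 3 windows are at chr18:28177131-28177380 on the minus strand, chr5:138753175-138753424 on the plus strand and chr3:41199255-41199504 on the plus strand, and each is written 5′ to 3′ along its gene.
CDH2: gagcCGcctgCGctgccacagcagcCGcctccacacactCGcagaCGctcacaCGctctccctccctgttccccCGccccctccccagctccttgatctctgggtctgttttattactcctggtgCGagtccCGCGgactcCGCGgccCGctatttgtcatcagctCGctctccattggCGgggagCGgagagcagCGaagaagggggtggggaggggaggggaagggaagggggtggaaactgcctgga
CTNNA1: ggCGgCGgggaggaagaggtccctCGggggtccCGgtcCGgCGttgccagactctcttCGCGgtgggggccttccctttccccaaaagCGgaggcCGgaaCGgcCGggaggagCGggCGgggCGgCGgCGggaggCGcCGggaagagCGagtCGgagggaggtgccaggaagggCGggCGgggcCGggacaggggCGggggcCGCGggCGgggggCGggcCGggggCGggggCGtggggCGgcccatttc
CTNNB1: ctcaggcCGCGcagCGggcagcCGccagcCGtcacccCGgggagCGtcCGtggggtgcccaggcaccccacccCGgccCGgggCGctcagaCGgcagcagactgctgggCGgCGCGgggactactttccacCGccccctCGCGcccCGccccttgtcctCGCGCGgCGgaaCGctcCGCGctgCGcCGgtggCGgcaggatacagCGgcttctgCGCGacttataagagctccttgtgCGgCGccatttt
The CTNNA1 window held 33 CG dinucleotides and the CTNNB1 window 34, with a GC content of 80% and 74.4%, and the CDH2 window held 17, with 66% GC. Over all 35116 windows the median was 11, and 8.15% of windows held 33 or more. The catenin windows were alike in CG content, and CTNNB1 was at 358 to 1076 times the level of CTNNA1 over the 4 lines. The windows are reference sequence and not the DNA of these lines, and PC3 is known to carry a homozygous deletion in CTNNA1. A link between window and level was not tested. Neither the E-box CACCTG, a sequence bound by the ZEB and SNAI repressors and found in 17.5% of windows, nor the OVO core CCGTTA, found in 2.45%, occurred on either strand of these 3 windows. Among the windows not shown, 2 overlapping windows of later CTNNA1 starts held the same copy of CCGTTA, and a CDH4 window held CACCTG.

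PC3-Epi expressed mainly CDH1 and CDH3, and PC3-EMT14 mainly CDH11. CDH1, the gene of E-cadherin, stood at 50.6 FPKM in PC3-Epi against 1.00 FPKM in PC3-EMT14. CDH3, the gene of P-cadherin of basal epithelial cells, was at 36.5 and 2.28 FPKM, and CDH11, the gene of OB-cadherin of osteoblasts and mesenchyme, was at 3.98 and 76.2 FPKM. CDH2, the mesenchymal partner in the classical switch, stood at 11.3 FPKM in PC3-Epi against 18.0 FPKM in PC3-EMT14, under 2-fold apart. With OVOL1 or OVOL2 the levels of CDH1 and CDH3 were many times higher than in PC3-EMT14, while CDH11 stayed within 2-fold of its level there. CTNNB1 was at 84.6 to 98.2 FPKM in every line, and CTNNA1 was under 0.3 FPKM in every line.

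**Figure D1:**
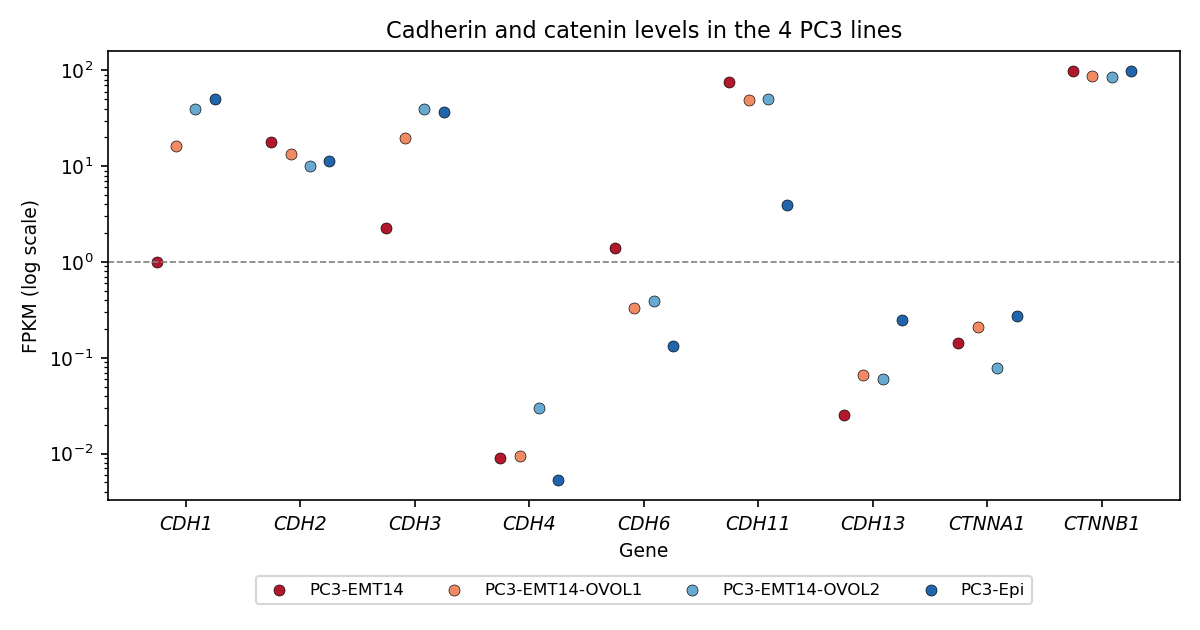
Level of each of the 9 genes (FPKM, log scale) in the 4 lines, where each point is the pooled value of 1 line and the dashed line is 1 FPKM. CDH1 and CDH3 are lowest in PC3-EMT14, CDH11 is lowest in PC3-Epi, CTNNB1 lies between 84.6 and 98.2 FPKM, and CDH4, CDH13 and CTNNA1 lie under 1 FPKM in all lines.

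CDH1 lies at chr16:68771195-68869444 on the plus strand of hg19 (entry XLOC_007766). Its level was 1.00 FPKM in PC3-EMT14, 16.2 FPKM in PC3-EMT14-OVOL1, 39.2 FPKM in PC3-EMT14-OVOL2 and 50.6 FPKM in PC3-Epi. The lines with OVOL thus lay between the mesenchymal and the epithelial line, with OVOL2 nearer to PC3-Epi. Against PC3-EMT14 the level was 50.4 times higher in PC3-Epi (log2 ratio 5.66), 16.5 times higher with OVOL1 (4.05) and 40.4 times higher with OVOL2 (5.34). In the table that sets the OVOL lines against each other, CDH1 was at 16.0 FPKM with OVOL1 and 39.2 FPKM with OVOL2, which is 2.45-fold higher with OVOL2 (log2 ratio 1.29). Among the genes counted in each table CDH1 had the 60th highest log2 ratio of 12344 in PC3-Epi, the 31st of 12111 with OVOL1 and the 25th of 12226 with OVOL2. PC3-EMT14 was at 0.981 and 0.971 FPKM in the 2 OVOL tables, so there CDH1 reached 1 FPKM through the OVOL line alone. Genes at such a low level in 1 line give uncertain folds, and with 1 FPKM added to both values the log2 ratios were 4.69, 3.12 and 4.35.

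CDH3 is the gene next to CDH1, 38237 bases before it on the same strand, at chr16:68678151-68732957 (XLOC_007765). Its level was 2.28 FPKM in PC3-EMT14, 19.9 FPKM with OVOL1, 39.2 FPKM with OVOL2 and 36.5 FPKM in PC3-Epi. The level with OVOL2 was the highest of the 4, but it and the level in PC3-Epi come from separately scaled tables and their order was not tested. Against PC3-EMT14 CDH3 was 16.0 times higher in PC3-Epi (log2 ratio 4.0), 8.95 times higher with OVOL1 (3.16) and 17.8 times higher with OVOL2 (4.15). These comparisons share the PC3-EMT14 samples and so are not independent of each other. Between the OVOL lines CDH3 was at 19.7 FPKM with OVOL1 and 39.2 FPKM with OVOL2, a ratio of 1.99 that fell just short of 2-fold as deposited and passed it when the table was centred on its median gene or rescaled to an equal sum.

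Because CDH1 and CDH3 are adjacent, the 5 genes on each side of CDH1 were also read, an addition made after the values were seen. Apart from CDH3, 8 of the 9 neighbours were at 1 FPKM or more in every line. None of these 8 was 2-fold higher than in PC3-EMT14 in any of the other lines, and their log2 ratios had a median of -0.28 for PC3-Epi, -0.08 for PC3-EMT14-OVOL1 and -0.28 for PC3-EMT14-OVOL2. HAS3, a hyaluronan synthase, went the other way, at 264 FPKM in PC3-EMT14, 191 with OVOL1, 112 with OVOL2 and 86.7 FPKM in PC3-Epi. SNTB2, a syntrophin, was at 10.9, 7.21, 4.73 and 5.15 FPKM in that order. Among these neighbours at 1 FPKM or more in every line, CDH3 was the one that, like CDH1, was 2-fold or more above its PC3-EMT14 level in each other line. Between the OVOL lines CDH1 was past 2-fold and CDH3, at a ratio of 1.99, was not.

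CDH2 encodes N-cadherin and lies at chr18:25530930-25757445 on the minus strand of hg19 (XLOC_009793). It was at 18.0 FPKM in PC3-EMT14, 13.3 FPKM with OVOL1, 10.1 FPKM with OVOL2 and 11.3 FPKM in PC3-Epi. PC3-EMT14 had the highest level and PC3-EMT14-OVOL2 the lowest. Compared with PC3-EMT14 the log2 ratio was -0.66 in PC3-Epi, -0.40 with OVOL1 and -0.79 with OVOL2, and it was -0.38 between OVOL2 and OVOL1, all within 2-fold. PC3-Epi, the epithelial line, thus held N-cadherin mRNA at 11.3 FPKM beside its E-cadherin mRNA.

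CDH11 lies at chr16:64980683-65155919 on the minus strand (XLOC_008158). It was at 76.2 FPKM in PC3-EMT14, 49.5 FPKM with OVOL1, 50.4 FPKM with OVOL2 and 3.98 FPKM in PC3-Epi. The lines with OVOL stayed near PC3-EMT14 and far from PC3-Epi. PC3-EMT14 exceeded PC3-Epi 19.1-fold (log2 ratio of PC3-Epi to PC3-EMT14 -4.26, the 76th lowest of 12344 genes), but exceeded the OVOL lines by only 1.51-fold with OVOL1 (-0.59) and 1.46-fold with OVOL2 (-0.55). The OVOL lines were at 49.0 and 50.4 FPKM in their own table, a log2 ratio of 0.04. In the OVOL lines CDH1 was thus nearer to its PC3-Epi level on the log2 scale, and CDH11 nearer to its PC3-EMT14 level.

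**Figure D2:**
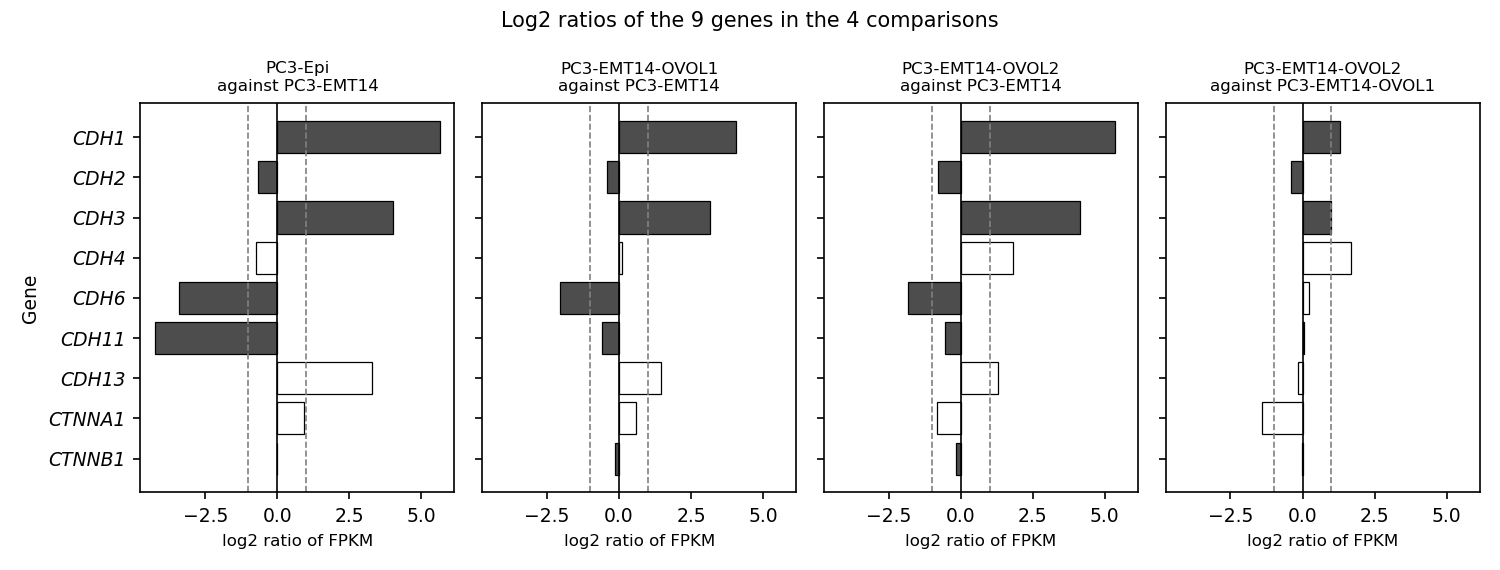
Log2 ratio of the pooled FPKM values for each gene, with 1 panel for each of the 4 comparisons. Filled bars are genes with 1 FPKM or more in the higher line, open bars are genes below that, and dashed lines mark 2-fold. The CDH11 bar passes the line only for PC3-Epi (-4.26), the CDH1 bar passes it in all 4 panels, and the CTNNB1 bars lie between -0.17 and 0.0046.

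CDH6 encodes K-cadherin, a cadherin of the developing kidney, and lies at chr5:31193796-31325237 on the plus strand (XLOC_016204). It was at 1.41 FPKM in PC3-EMT14, 0.333 FPKM with OVOL1, 0.388 FPKM with OVOL2 and 0.134 FPKM in PC3-Epi. PC3-EMT14 alone passed 1 FPKM, so the gene was counted through that line. The log2 ratios to PC3-EMT14 were -3.40, -2.05 and -1.82 for PC3-Epi, OVOL1 and OVOL2, differences of about 1 FPKM on the linear scale. CDH4, the gene of R-cadherin (chr20:59827559-60512299, plus strand, XLOC_013079), was between 0.00532 and 0.0300 FPKM in all lines. CDH13, the gene of T-cadherin, which has no transmembrane segment or cytoplasmic tail (chr16:82660578-83830199, plus strand, XLOC_007819), ranged from 0.0251 FPKM (PC3-EMT14) to 0.246 FPKM (PC3-Epi). Neither gene reached 1 FPKM, and no difference was read from their values.

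Counted by the same rule, 6 of the 9 genes had 1 FPKM or more in the table of PC3-Epi and PC3-EMT14. CDH1 and CDH3 were higher in PC3-Epi, where 7.09% of all counted genes were, and CDH6 and CDH11 were lower, as were 7.96% of all. With OVOL1, CDH1 and CDH3 were higher against a background of 2.06%, and CDH6 was lower against 1.23%. With OVOL2, CDH1 and CDH3 were again higher and CDH6 lower, against 4.16% higher and 2.58% lower. The CDH6 difference was no longer counted in either OVOL table with 1 FPKM added or with a floor of 5 FPKM. Between OVOL2 and OVOL1 the difference in CDH1 was the one counted among 5 genes at 1 FPKM or more, where 1.68% of all genes were higher with OVOL2 and 0.801% lower. The median log2 ratio of the counted members was -0.33, -0.27, -0.36 and 0.04 in the 4 comparisons, beside -0.01, -0.0018, -0.04 and -0.04 over all counted genes. Since CDH1 and CDH6 passed the floor through their higher line in some of these tables, the counts describe the set and support nothing further.

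The make-up of the cadherin pool was read within each line, where the scaling of the table cancels. In PC3-EMT14 CDH11 made up 77.1% of the summed FPKM of the 7 cadherins, CDH2 18.2%, CDH3 2.30% and CDH1 1.01%. With OVOL1 these shares were 49.8%, 13.4%, 20.0% and 16.3%, and with OVOL2 they were 36.2%, 7.24%, 28.1% and 28.1%. In PC3-Epi CDH11 made up 3.88%, CDH2 11.0%, CDH3 35.5% and CDH1 49.2%. The epithelial pair CDH1 and CDH3 together held 84.7% of the pool in PC3-Epi, 3.32% in PC3-EMT14, 36.4% with OVOL1 and 56.3% with OVOL2. The summed level itself was 98.9 FPKM in PC3-EMT14, 99.4 with OVOL1, 139 with OVOL2 and 103 FPKM in PC3-Epi. PC3-EMT14 and PC3-Epi thus had nearly equal summed levels made of different genes, whereas the OVOL lines held the 2 kinds side by side.

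**Figure D3:**
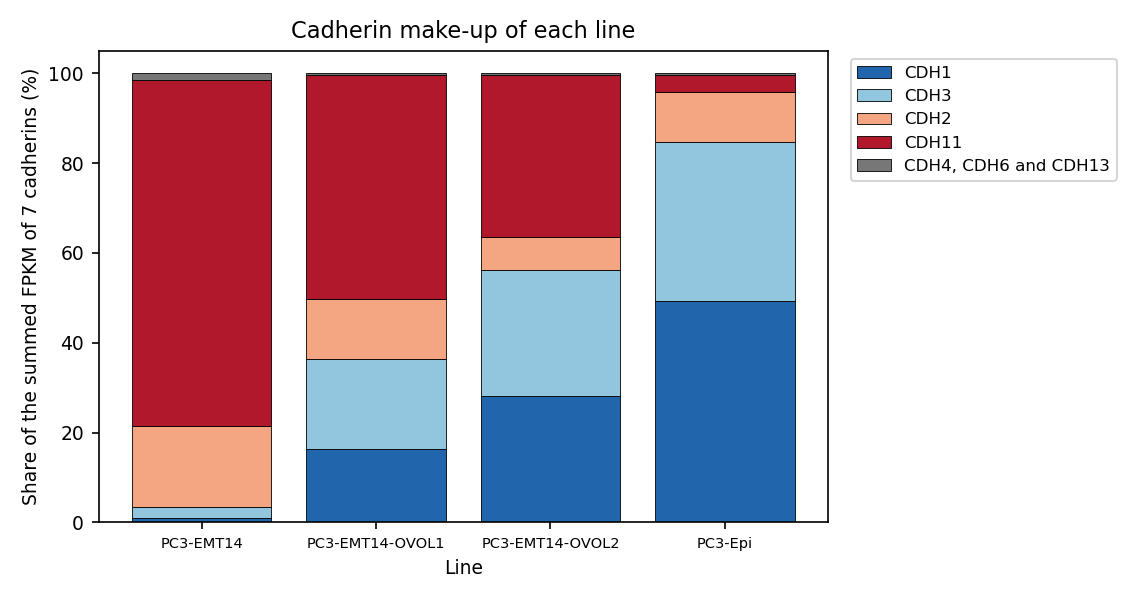
Share of the summed FPKM of the 7 cadherins (%) held by each gene, with 1 bar for each line. CDH11 makes up 77.1% in PC3-EMT14 and 3.88% in PC3-Epi, and both OVOL lines hold CDH11 together with CDH1 and CDH3.

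The ratio of CDH1 to CDH2, the classical form of the switch, turned over between PC3-EMT14 and the other lines. CDH2 was 17.9 times CDH1 in PC3-EMT14 (log2 of CDH1 to CDH2 -4.16). CDH1 was above CDH2 in the other lines, at a log2 ratio of 2.16 in PC3-Epi, 1.96 with OVOL2 and 0.29 with OVOL1. With OVOL1 CDH1 was only 1.22 times CDH2, within 2-fold, and this order was not set against replicate error. Since CDH2 differed by less than 2-fold throughout, most of the change in this ratio came from the CDH1 value. Set against CDH11 the order was different: CDH11 was 76.0 times CDH1 in PC3-EMT14, 3.05 times with OVOL1 and 1.29 times with OVOL2, and CDH1 was 12.7 times CDH11 only in PC3-Epi. The log2 of CDH1 to CDH11 was 3.67 in PC3-Epi, -0.36 with OVOL2, -1.61 with OVOL1 and -6.25 in PC3-EMT14, so both OVOL lines lay between the mesenchymal and the epithelial line, and the 2 levels in PC3-EMT14-OVOL2 were within 2-fold of each other.

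CTNNB1, which links cadherins to α-catenin and also carries Wnt signals to the nucleus, lies at chr3:41240942-41281939 on the plus strand (XLOC_014290). It was at 97.9 FPKM in PC3-EMT14, 87.5 FPKM with OVOL1, 84.6 FPKM with OVOL2 and 98.2 FPKM in PC3-Epi. The level hardly varied, with log2 ratios to PC3-EMT14 of 0.0046 in PC3-Epi, -0.13 with OVOL1 and -0.17 with OVOL2. It was the member with 3 isoform entries. TCONS_00023181 held 39.7% of the gene's level in PC3-EMT14, 39.0% in PC3-EMT14-OVOL1, 44.3% in PC3-EMT14-OVOL2 and 35.0% in PC3-Epi. TCONS_00023182 held 35.7%, 38.4%, 32.5% and 36.9% in that order, and TCONS_00023183 held 24.6%, 22.6%, 23.2% and 28.1%. All 3 isoforms were present in every line, and TCONS_00023183 was the least abundant throughout. The other 8 genes had 1 isoform entry each, equal to the gene value.

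CTNNA1, the gene of αE-catenin, lies at chr5:138089107-138270723 on the plus strand (XLOC_016447), in a locus shared with LRRTM2, which was listed at 0 in all lines. It was at 0.144 FPKM in PC3-EMT14, 0.209 FPKM with OVOL1, 0.0787 FPKM with OVOL2 and 0.274 FPKM in PC3-Epi. All 4 values are far under 1 FPKM, and the OVOL lines lay on either side of PC3-EMT14. CTNNB1 was 682 times CTNNA1 in PC3-EMT14, 419 times with OVOL1, 1076 times with OVOL2 and 358 times in PC3-Epi. PC3 is known to carry a homozygous deletion in CTNNA1, and the tables do not show the gene's DNA. The 5 genes on each side, small RNA genes and LRRTM2 left out, were read after the values were seen. Of these 10, 6 were at 1 FPKM or more in every line, and none of those 6 was 2-fold apart in any comparison. HSPA9, a mitochondrial chaperone, stood at 85.2 FPKM in PC3-EMT14 against 132 FPKM in PC3-Epi, and SIL1, an endoplasmic reticulum exchange factor that is the next gene on the other side, was at 4.80 and 3.58 FPKM. REEP2 passed 1 FPKM in PC3-EMT14 alone, at 1.98 FPKM against 0.640 to 0.722 FPKM in the other lines. The low level was thus that of CTNNA1 and of a few neighbours such as EGR1, at 0.0293 to 0.497 FPKM, and not of the whole stretch.

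**Figure D4:**
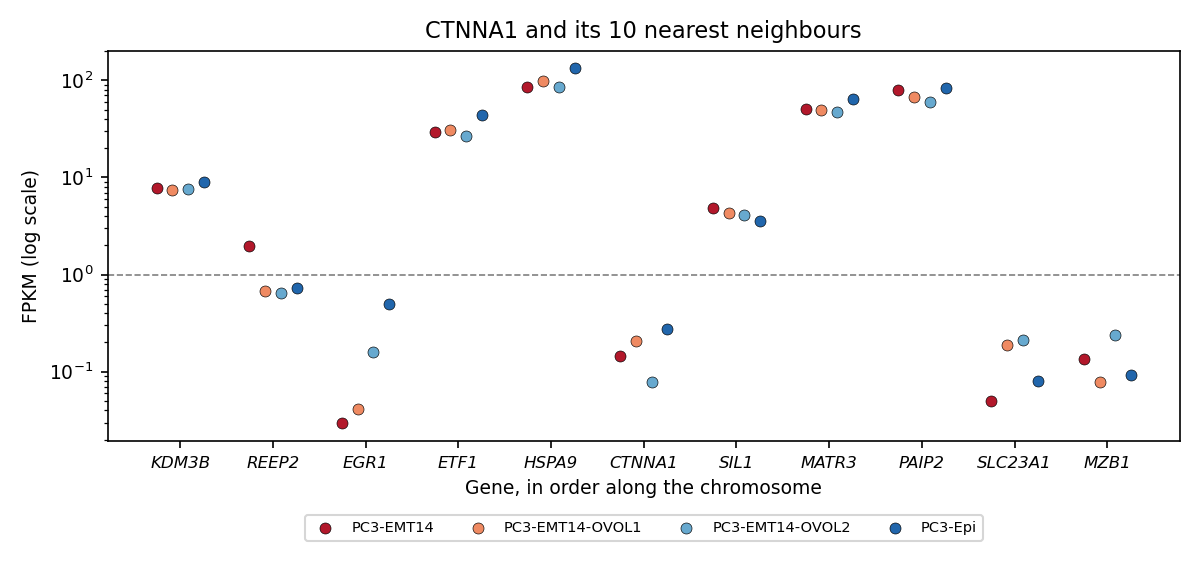
Level of CTNNA1 and its 10 nearest genes (FPKM, log scale), in their order along the chromosome, with 1 point for each line and a dashed line at 1 FPKM. CTNNA1 lies between 0.0787 and 0.274 FPKM while HSPA9, MATR3 and PAIP2 lie at 47.0 FPKM or more.

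The other α-catenins were under 1 FPKM as well. CTNNA2, the neural α-catenin, was between 0.0026 and 0.143 FPKM, and CTNNA3, the αT-catenin of heart and testis, was between 0.457 and 0.826 FPKM. Vinculin (VCL), an actin-binding relative of α-catenin, was at 214 FPKM in PC3-EMT14, 206 with OVOL1, 217 with OVOL2 and 177 FPKM in PC3-Epi. CTNNAL1, the gene of α-catulin, was at 55.7, 76.6, 71.6 and 77.4 FPKM in that order. CTNND1, whose product p120-catenin holds cadherins at the membrane and whose entry is shared with TMX2, was at 116, 121, 116 and 123 FPKM. Like CTNNB1, these 3 genes did not differ by 2-fold between any pair of lines compared.

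Of 63 other genes of the adherens junction and its control, in 6 lists, 42 reached 1 FPKM in each table with PC3-EMT14 and 41 in that of the OVOL lines. In PC3-Epi 2 were higher (JUP and PVRL4) and 5 lower (AXIN2, TCF7L1, ZEB1, SNAI2 and TCF4), with a median log2 ratio of 0.12, where 7.09% of all counted genes were higher and 7.96% lower. With OVOL1, 1 was higher (SNAI1) and 3 were lower (AXIN2, SNAI2 and TCF4), with a median of -0.0032, beside 2.06% and 1.23% of all. With OVOL2, 2 were higher (JUP and SNAI1) and 3 lower (AXIN2, ZEB1 and SNAI2), with a median of -0.05, beside 4.16% and 2.58% of all. Between OVOL2 and OVOL1, ZEB1 alone was past 2-fold, and it was lower with OVOL2, as were 0.801% of all counted genes.

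JUP encodes plakoglobin (γ-catenin), which can take the place of β-catenin on cadherin tails and also sits in desmosomes. It was at 20.9 FPKM in PC3-EMT14, 26.6 with OVOL1, 46.0 with OVOL2 and 51.8 FPKM in PC3-Epi, 2.48 times the PC3-EMT14 level in PC3-Epi and 2.27 times with OVOL2. Its order over the lines was that of CDH1. PVRL4, the gene of nectin-4, was at 4.60 FPKM in PC3-Epi and under 0.1 FPKM in the other 3 lines, the OVOL lines included, so it was counted through PC3-Epi alone. Of the other 16 cadherins, CDH7 and CDH24 were at 1 FPKM or more in every line, and none of the list was past 2-fold. CDH7 was at 2.35, 2.21, 3.44 and 4.10 FPKM and CDH24 at 5.38, 4.27, 4.38 and 4.77 FPKM in the same order. In the degradation and nuclear partner list, AXIN2, a scaffold of the β-catenin destruction complex and a target of Wnt signalling, was at 1.12, 0.250, 0.414 and 0.0389 FPKM, counted through PC3-EMT14 alone. TCF7L1, a nuclear partner of β-catenin, stood at 3.77 FPKM in PC3-EMT14 against 1.64 FPKM in PC3-Epi. None of the 5 genes of cadherin shedding and turnover was past 2-fold in any comparison.

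The 8 genes listed as CDH1 repressors did not move as 1 group. ZEB1 was at 7.59 FPKM in PC3-EMT14, 4.25 with OVOL1, 1.77 with OVOL2 and 0.130 FPKM in PC3-Epi, the reverse of the CDH1 order. ZEB1 was 58.6 times lower in PC3-Epi than in PC3-EMT14, 4.15 times lower with OVOL2 and 1.75 times lower with OVOL1. CDH1 was 50.4, 40.4 and 16.5 times higher in that order, and a link between the 2 genes was not tested. The PC3-Epi level of ZEB1 is under 1 FPKM, so its fold is uncertain. SNAI2 was at 4.05, 1.47, 1.80 and 1.35 FPKM, more than 2-fold under PC3-EMT14 in all 3 other lines. SNAI1 went the other way, at 1.35, 2.67, 2.65 and 2.46 FPKM, 2.03 times the PC3-EMT14 level with each OVOL gene and 1.83 times in PC3-Epi. TCF4 was at 2.43, 1.08, 1.33 and 0.624 FPKM. TWIST1, at 5.69, 5.26, 5.15 and 3.42 FPKM, and TCF3, at 18.6, 20.9, 18.0 and 24.7 FPKM, stayed within 2-fold. ZEB2, at 0.0492 to 0.145 FPKM, and KLF8, at 0.0208 to 0.0936 FPKM, were under 1 FPKM everywhere.

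**Figure D5:**
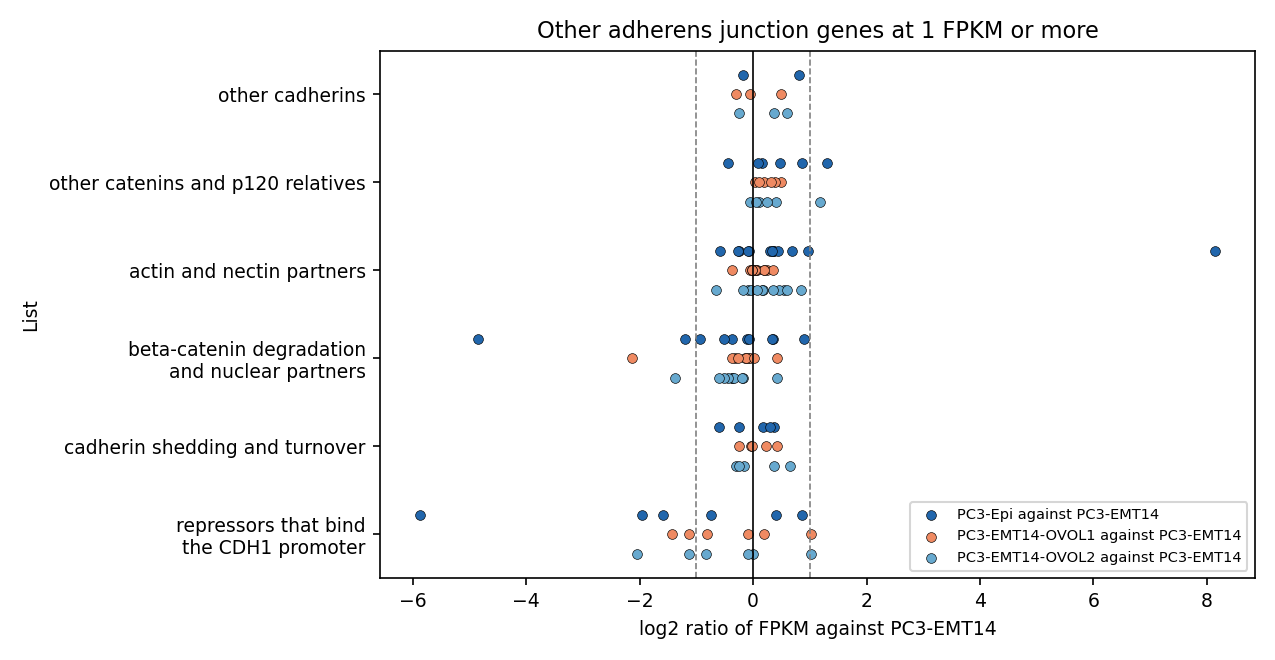
Log2 ratio of FPKM against PC3-EMT14 for the genes of 6 adherens junction lists with 1 FPKM or more in the higher line, where each point is a gene, colours are the 3 comparisons and dashed lines mark 2-fold. Most points lie between the dashed lines, and the points furthest out are PVRL4 (8.14), ZEB1 (-5.87) and AXIN2 (-4.84), all for PC3-Epi.

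The genes whose pattern was most like that of each member were found by the distance between their 3 log2 ratios against PC3-EMT14, over 11988 genes and 4 lines. Nearest to CDH1 were DENND1C (distance 0.456), LSR (0.667) and BMP3 (0.762). LSR, a protein of tricellular tight junctions, was at 1.38 FPKM in PC3-EMT14, 28.1 with OVOL1, 37.8 with OVOL2 and 58.1 FPKM in PC3-Epi, close to CDH1 in level as well. Nearest to CDH3 were DAPP1 (0.578), SLC44A4 (0.658) and ILDR1 (0.690), the last a protein of tricellular junctions. CDH11 had closer neighbours, SBSN (0.167), MCC (0.197) and DPYSL3 (0.293). DPYSL3 was at 13.7, 10.7, 9.77 and 0.745 FPKM. All these genes were picked on the same ratios, so their likeness to the members follows from the search. Several were low in the line that set their folds. In PC3-EMT14, DENND1C, BMP3, DAPP1, SLC44A4 and ILDR1 were at 0.0644 to 0.412 FPKM. In PC3-Epi, SBSN was at 0.323 FPKM and MCC at 0.205 FPKM. Nearest to CDH6 were OSCAR (0.399), SEPP1 (0.416) and COL6A3 (0.509), of which COL6A3, a collagen VI chain, was at 39.0, 11.8, 8.70 and 4.27 FPKM.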

How the data were processed

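RNA of 10 samples of 4 PC3 lines was sequenced as 50-base read pairs. The authors aligned reads to the hg19 transcriptome with TopHat and ran Cuffdiff with upper-quartile scaling, bias and multi-read correction. The deposited values used here are FPKM, 1 pooled value for each line in each of 4 gene and 4 isoform tables; other columns of the 8 tables hold the authors' fold changes, test statistics, p-values and q-values and were not used. Depth per sample is not in these tables, so no interval or limit was given.

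Lines were matched by the sample names in the tables. Log2 ratios were taken within a table, with no pseudocount. A gene was counted at 2-fold or more with 1 FPKM or more in the higher line and above 0 in both; with 1 value for each line no test was run. Named were all 9 members, list genes past 2-fold in at least 1 comparison, all CDH1 repressors, and for each member past 2-fold against PC3-EMT14 the 3 genes nearest by Euclidean distance over 3 log2 ratios. CTNNA2, CTNNA3, CTNNAL1, CTNND1, VCL, CDH7, CDH24 and the neighbouring genes were added after values were seen. The members and lists were chosen with earlier results of these data known. Positions are those of the tables (hg19, starts counted from 1), with strands from GENCODE. One marker gene is not reported here. Alternatives were other fold thresholds, floors, pseudocounts, scalings and isoform sums. Python 3.11.15, pandas 2.3.3 and numpy 2.4.6 were used.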

Additional observations from a re-analysis of the deposited data

How the results depend on the processing

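Of 100 alternative values for 20 results, 80 stayed close to the reported value, 20 moved and 0 reversed. Some of the 80 could not have moved and so say nothing about robustness. These were the isoform sums, which equal the gene values, and the CDH1 to CDH2 ratios of a line in another table, where the scaling cancels. With 1 FPKM added to both values the log2 ratio of CDH1 to PC3-EMT14 was 4.69 in PC3-Epi, 3.12 with OVOL1 and 4.35 with OVOL2, and the log2 of CDH1 to CDH2 in PC3-EMT14 was -3.24. With no filter on low values 5 members were past 2-fold with OVOL2, CDH4 and CDH13 added, and 3 between the OVOL lines, CDH4 and CTNNA1 added. Between the OVOL lines 2 members passed at 1.5-fold, when centred on the median gene or when rescaled to an equal sum, CDH3 added in each, and 0 at 4-fold.

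Junction genes in PC3-Epi numbered 16 at 1.5-fold and 17 with no filter. With OVOL1 they numbered 1 with 1 FPKM added and 13 with no filter. With OVOL2 they numbered 12 at 1.5-fold, 2 with 1 FPKM added and 15 with no filter. Between the OVOL lines they numbered 3, 0 and 7 in that order. The CDH6 difference was lost with 1 FPKM added in both OVOL comparisons, with a floor of 5 FPKM in all 3 comparisons to PC3-EMT14, and at 4-fold with OVOL2.

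PC3-Epi is in 1 table, so its ratios had no value from another table. Leaving out a replicate could not be done, since the tables hold 1 pooled value for each line. No paired analysis was possible because the columns carry no replicate numbers. Differences near 2-fold, such as those of CDH3 between the OVOL lines and of SNAI1, were not set against replicate error, and folds of genes near or under 1 FPKM rest on few reads at an unknown depth.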
